A study of Homo sapiens with 19 samples.

Results

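The libraries described here are 5 controls of MDA-MB-231, an established human cell line from a breast cancer that lacks hormone receptors and HER2 amplification, out of 19 RNA-seq libraries of that line. Their titles and tables define them. In each, cells were transfected with a control siRNA, named siNC in the labels, and kept for 48 h in suspension in sphere medium (DMEM/F12 with B27, EGF and FGF). The siNC libraries of the siEZH2 experiment (n = 2) served as controls for knockdown of EZH2, and the siNC libraries of the siSCIRT experiment (n = 3) served as controls for 2 siRNAs against the long noncoding RNA SCIRT. All 5 carry the same line, siRNA name, medium and time in the labels, and the adherent growth medium with fetal calf serum is given alike for all. The labels do not give the siNC sequence, the passage, the seeding density or the dates, and do not tell whether replicates came from separate cultures, so each p-value speaks of library-to-library spread, which may be technical. The remaining libraries are the knockdowns of both experiments and a culture series without siRNA, in which adherent cells were set beside spheres of 16 h and of 5 d (n = 2 in each of these groups).

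Spheres are small clumps of cells that float because the plate does not let them attach. Cells inside such clumps can divide less and can receive less oxygen than cells in a flat layer. Dividing cells switch on replication genes through E2F factors in late G1 and S phase, and mitotic genes through the MuvB, B-Myb and FoxM1 complex in G2 and M. Cells short of oxygen stabilise the hypoxia-inducible factors HIF-1 and HIF-2, which raise genes for glucose uptake, glycolysis and new vessels. The comparison asks how far such baseline states differ between controls that the labels describe in the same words.

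The siNC libraries of the siEZH2 experiment held 34296110 and 37557787 reads, and those of the siSCIRT experiment held 60023399, 57218620 and 62218847 reads. Levels are given as CPM, reads of a gene scaled to the same total in each library, over the 25819 gene identifiers that both tables list, and differences as log2(CPM + 0.5) of the siEZH2 experiment minus the siSCIRT experiment, with the standard error of a limma fit over the 5 libraries. The pseudocount of 0.5 makes differences of low genes smaller than the ratio of their levels. A count of 0 allows up to 3 reads, which is 0.08 to 0.0876 CPM in the siEZH2 experiment and 0.0482 to 0.0524 CPM in the siSCIRT experiment. Such floors, and the intervals given below, cover counting error only. Because each experiment is 1 deposited table, the experiment, the sequencing and the making of the table cannot be told apart, and every test below compares these libraries. Among the markers set for the line, VIM, CD44, EGFR and S100A4 were high, while ESR1, PGR and CDH1 stayed at or under 0.3 CPM in all 5. The other markers set for it, ZEB1, EPCAM and ERBB2, are not described here.

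Within an experiment the controls resembled each other far more than across experiments. The lowest correlation between replicate libraries over all genes tested was 0.9963 in the siEZH2 experiment and 0.9953 in the siSCIRT experiment, against 0.9415 to 0.9529 between libraries of different experiments. The median SD of a gene between replicates was 0.088 and 0.104 on the log2 scale. Of 13402 genes tested (a mean of at least 1 CPM), 7244 differed at a Benjamini-Hochberg adjusted p under 0.05 (54.1%), 3021 of them higher (22.5%) and 4223 lower (31.5%) in the siEZH2 experiment. With quantile normalization the split was 3884 higher and 3584 lower. Differences of at least 2-fold were fewer, with 377 genes higher (2.81%) and 711 lower (5.31%). The ranges of the groups did not overlap for 9269 genes (69.2%), of which 4046 were higher (30.2%) and 5223 lower (39%). The median difference of all genes was -0.05. These shares are the background for each gene group below.

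Some of the largest differences were shared by every library of a table, knockdowns included. Among genes between TRIM27 and ZBTB9 on chromosome 6, the stretch that holds the major histocompatibility complex (MHC), 65 of 113 tested were at least 2-fold higher in the siEZH2 experiment (57.5%) and 1 was lower, with a median of 1.18. IER3, an immediate early gene of that stretch, stood at 1083 and 999 CPM in siNC spheres of the siEZH2 experiment, against 75.01, 58.45 and 45.8 CPM in those of the siSCIRT experiment. Its level was 1234 and 1311 CPM with siEZH2 and 41.6 to 74.0 CPM in the 6 siSCIRT libraries, so knockdown libraries stood with the controls of their own table. The region took 1.71 to 1.81% of reads in the siEZH2 table, 0.67 to 0.79% in the siSCIRT table and 1.33 to 1.92% in the culture table.

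Pseudogenes, copies whose reads the parent gene can share, made up another such class, with 50 of 286 at least 2-fold higher (17.5%) and 32 lower (11.2%). BNIP3P1, a copy of the hypoxia-inducible mitophagy receptor gene BNIP3, had 3548 and 4734 reads in siNC spheres of the siEZH2 experiment and 1, 2 and 0 reads in those of the siSCIRT experiment, a ratio of 6905 (95% exact Poisson interval 2363 to 33480). The zinc finger gene ZNF84 had 1102 and 1019 reads against 0, 0 and 2 reads (ratio 2653, interval 734 to 21900). In the other direction, MTRNR2L2, a nuclear copy of mitochondrial ribosomal RNA, had 3 and 3 reads in the siEZH2 experiment, against 59710, 59952 and 61255 reads in the siSCIRT experiment. MTRNR2L8 (-7.72 ± 0.11), TTC34 (-5.57 ± 0.14) and DHRS3 (-4.78 ± 0.13), a retinaldehyde reductase, were lower as well. Of the 3 MTRNR2L genes tested, 2 were at least 2-fold lower and 1 was at least 2-fold higher. The tables also list different genes, 3051 identifiers being in the siEZH2 table alone and 1136 in the siSCIRT table alone. Whether a different annotation or handling of multiply mapped reads made these values was not tested. Outside the region, the pseudogenes and the MTRNR2L genes (classes and bounds chosen after these values were seen), 261 of 13000 genes were at least 2-fold higher and 676 lower. ZNF84, TTC34 and DHRS3 are in none of these classes and stay in those counts.

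**Figure D1:**
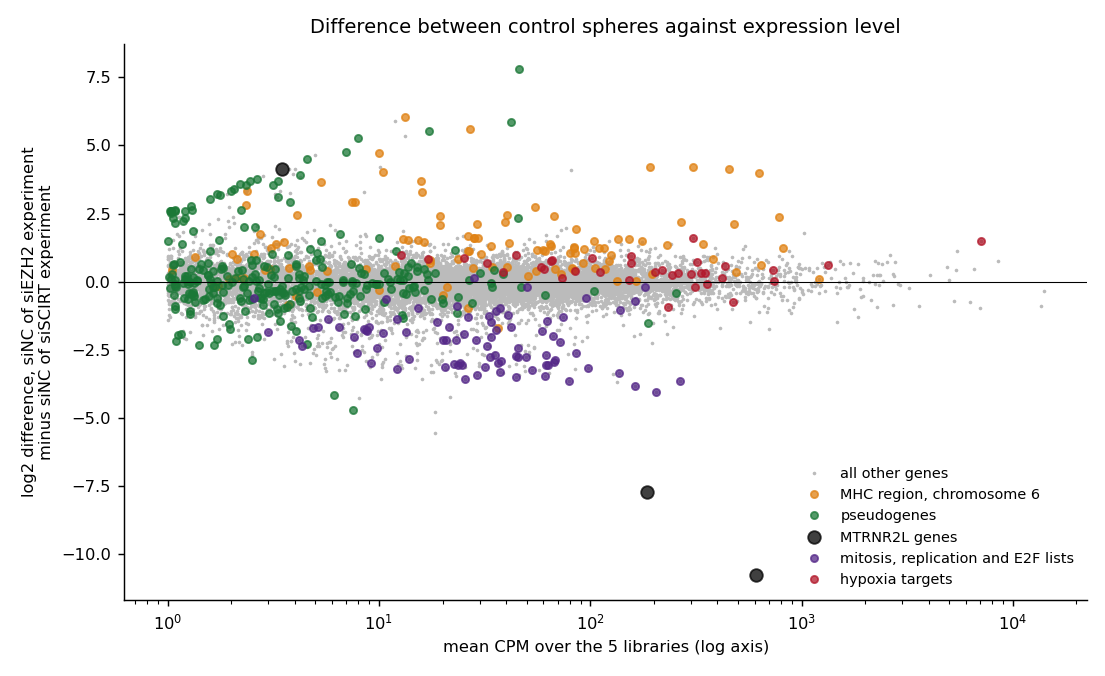
Each dot is 1 of the 13402 genes tested, with its mean CPM over the 5 control libraries (horizontal, log axis) against the log2 difference of siNC spheres, siEZH2 experiment minus siSCIRT experiment (vertical). Genes of the MHC region lie mostly above 0 and pseudogenes scatter to both sides. Of the 3 MTRNR2L genes tested, MTRNR2L2 and MTRNR2L8 lie at the bottom and 1 lies above 0. The genes of the mitosis and replication lists (purple) lie almost all below 0 while hypoxia targets (red) lie mostly above.

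The largest median difference of any cycling or hypoxia list was in mitosis. Of 40 genes of the mitosis list, 39 were lower in siNC spheres of the siEZH2 experiment and none was higher (median -2.97), 38 of them by at least 2-fold. In bulk RNA, fewer cycling cells and less of these RNAs per cycling cell cannot be told apart. MKI67, the gene of the proliferation marker Ki-67, stood at 22.2 and 16.3 CPM in the siEZH2 experiment, against 304, 301 and 377 CPM in the siSCIRT experiment (-4.06 ± 0.12, adjusted p = 4.29e-19). The promoters of MKI67, CCNB2 and CDC20 are shown because the mitosis genes moved together. They span from 250 bases before to 50 bases after the start of the gene in RefSeq (GRCh38.p14), at chr10:128126374-128126673 (minus strand), chr15:59104896-59105195 (plus) and chr1:43358731-43359030 (plus). Capitals mark CCAAT, the box that NF-Y binds, and TTTGAA or TTCGAA, the core of the cell cycle genes homology region, on either strand, and in MKI67 a match of each shares bases.
MKI67: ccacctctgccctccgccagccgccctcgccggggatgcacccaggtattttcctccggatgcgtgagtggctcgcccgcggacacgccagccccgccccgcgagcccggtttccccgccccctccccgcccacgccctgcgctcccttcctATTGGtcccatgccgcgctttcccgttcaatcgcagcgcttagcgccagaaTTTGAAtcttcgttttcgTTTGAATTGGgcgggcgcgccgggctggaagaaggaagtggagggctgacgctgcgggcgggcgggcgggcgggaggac
CCNB2: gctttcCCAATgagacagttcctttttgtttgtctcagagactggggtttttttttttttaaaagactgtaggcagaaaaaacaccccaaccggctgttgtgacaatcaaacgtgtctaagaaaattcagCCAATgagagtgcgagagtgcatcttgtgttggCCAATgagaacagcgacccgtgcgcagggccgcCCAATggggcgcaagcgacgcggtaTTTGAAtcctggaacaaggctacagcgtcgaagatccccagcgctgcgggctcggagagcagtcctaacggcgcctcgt
CDC20: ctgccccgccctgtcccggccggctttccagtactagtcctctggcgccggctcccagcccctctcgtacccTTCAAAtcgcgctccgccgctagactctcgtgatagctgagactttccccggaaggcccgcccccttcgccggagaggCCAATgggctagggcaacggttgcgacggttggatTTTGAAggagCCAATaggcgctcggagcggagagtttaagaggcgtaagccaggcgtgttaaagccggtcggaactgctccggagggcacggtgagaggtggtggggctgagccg
RefSeq windows were found for 34 of the 40 mitosis genes, and of their 44 windows 63.6% held TTTGAA or TTCGAA and 72.7% held CCAAT, against 16.4% and 34.6% of all 34796 windows.

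The other mitosis genes followed MKI67 from entry into mitosis to its end. CCNB1, cyclin B1, which drives entry into mitosis with CDK1, had 17.4 and 15.1 CPM in the siEZH2 experiment, against 150, 127 and 177 CPM in the siSCIRT experiment (-3.17 ± 0.11). CCNB2, cyclin B2, whose promoter is printed above, had 6.37 and 4.24 CPM against 49.1, 42.5 and 57.0 CPM (-3.12 ± 0.14). CDK1 itself had 10.5 and 9.28 CPM, against 66.3, 59.5 and 83.3 CPM (-2.75 ± 0.12). In all these genes every library of the siEZH2 experiment was below every library of the siSCIRT experiment, as in 39% of all genes tested. The topoisomerase gene TOP2A, which untangles sister chromatids, had 35.4 and 30.6 CPM in the siEZH2 experiment, against 411, 371 and 485 CPM in the siSCIRT experiment (-3.65 ± 0.10). The kinetochore gene CENPF (-3.82 ± 0.11), the spindle gene DLGAP5 (-3.65 ± 0.11) and the spindle checkpoint kinases BUB1B (-3.55 ± 0.12) and BUB1 (-3.50 ± 0.11) were lower as well. CDC20, the activator of the anaphase-promoting complex, had 13.7 and 13.3 CPM, against 110, 85.9 and 116 CPM (-2.89 ± 0.11). The transcription factors that raise the programme were lower too, MYBL2 (B-Myb) by -3.0 ± 0.13 and FOXM1 by -2.75 ± 0.12. At the small end stood ECT2, an exchange factor of cytokinesis (-0.61 ± 0.09). CDC25B, a phosphatase that activates CDK1, was the exception, at 180 and 151 CPM in the siEZH2 experiment and 188, 176 and 210 CPM in the siSCIRT experiment (-0.21 ± 0.10, adjusted p = 0.0732). Its difference passed the threshold when replicate 1 of the siEZH2 experiment was left out (-0.33, adjusted p = 0.0145) or replicate 2 of the siSCIRT experiment (-0.27, adjusted p = 0.0277), and also with TMM scaling (-0.24, adjusted p = 0.0407) or scaling over nuclear genes (-0.23, adjusted p = 0.0438).

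Replication genes were lower as well, by less than mitosis genes. Of 44 genes of replication and E2F control, 42 were lower and none higher (median -1.66), 36 of them at least 2-fold. RRM2, the inducible subunit of ribonucleotide reductase, which makes the DNA building blocks, had 7.45 and 9.01 CPM in siNC spheres of the siEZH2 experiment, against 80.5, 72.2 and 95.4 CPM in those of the siSCIRT experiment (-3.25 ± 0.12, adjusted p = 1.25e-21). Its steady partner RRM1 was lower by -2.23 ± 0.11. The origin-licensing genes CDC6 (-2.13 ± 0.12) and ORC1 (-2.04 ± 0.14) were lower, as were MCM10 (-3.21 ± 0.14) and CDC45 (-2.44 ± 0.15), which act when origins fire, and the factor E2F1 (-2.13 ± 0.12). Subunits of the MCM2 to MCM7 helicase spread widely, with MCM6 at -2.15 ± 0.12, MCM4 at -1.44 ± 0.10, MCM5 at -0.96 ± 0.11 and MCM7 at -0.70 ± 0.10. MCM4 had 30.4 and 30.1 CPM in the siEZH2 experiment, against 84.8, 73.3 and 92.3 CPM in the siSCIRT experiment. Every library of the siEZH2 experiment was below every library of the siSCIRT experiment for 43 of the 44 genes, against 39% of all genes tested. PCNA, the sliding clamp of DNA polymerase, had 42.4 and 35.6 CPM, against 98.8, 80.4 and 114 CPM (-1.31 ± 0.12). DUT (0.15 ± 0.11, adjusted p = 0.265) and SLBP (-0.18 ± 0.10, adjusted p = 0.118) did not pass the test.

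The genes that gate entry into the cycle did not move as 1 group. Among 16 tested genes of D-type cyclins, their kinases, CDK inhibitors and pocket proteins, 5 were higher (31.2%) and 3 lower (18.8%). Over all genes tested, 22.5% were higher and 31.5% lower. The median of the list was 0.01 (-0.07 to 0.009 with 1 library left out). The cyclin D1 gene CCND1 had 466 and 493 CPM in the siEZH2 experiment, against 417, 457 and 443 CPM in the siSCIRT experiment (0.13 ± 0.09, adjusted p = 0.245). CDKN1A, the p21 inhibitor, had 240 and 307 CPM, against 284, 276 and 229 CPM, with groups that overlapped (0.05 ± 0.11, adjusted p = 0.697). Among the inhibitors, CDKN1C (p57) was higher, with 28.9 and 27.2 CPM in the siEZH2 experiment, against 14.6, 15.3 and 12.4 CPM in the siSCIRT experiment (0.97 ± 0.11), and CDKN1B (p27) was higher by 0.61 ± 0.10. CCNG2, a cyclin of resting cells, was higher by 0.50 ± 0.10. The pocket protein gene RBL1 (p107), itself an E2F target, was lower (-2.34 ± 0.13), with CDK6 (-0.58 ± 0.10) and the INK4 inhibitor CDKN2C (-0.59 ± 0.11).

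**Figure D2:**
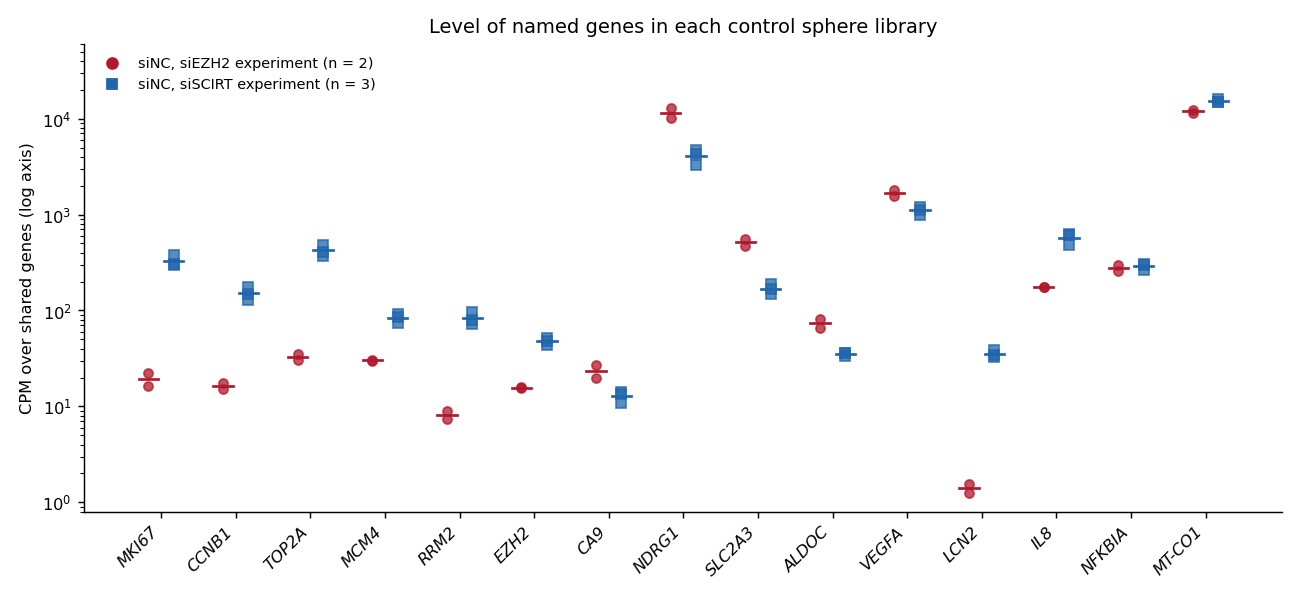
Level of 15 named genes in each of the 5 control libraries as CPM over shared genes (log axis), with siNC of the siEZH2 experiment (circles, n = 2) left of siNC of the siSCIRT experiment (squares, n = 3) and a bar at each mean. Cycling genes from MKI67 to EZH2 sit lower in the siEZH2 experiment, hypoxia and glycolysis genes from CA9 to VEGFA sit higher, and for NFKBIA the groups overlap.

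Hypoxia targets went the other way, by smaller amounts. Of 37 genes of the list, 36 passed the filter. In siNC spheres of the siEZH2 experiment 27 of these were higher and 2 lower (median 0.44), against 22.5% of all genes that were higher. The higher count was as low as 20 under the alternatives run, and the median ran from 0.37 to 0.54 with 1 library left out. The SD of the list median between replicates was 0.232. NDRG1, a hypoxia- and differentiation-induced gene, had 10207 and 12830.1 CPM in the siEZH2 experiment, against 4244, 4744 and 3286 CPM in the siSCIRT experiment (1.5 ± 0.13, adjusted p = 2.11e-08). SLC2A3, the glucose transporter GLUT3, had 470 and 555 CPM against 166, 191 and 149 CPM (1.61 ± 0.10, adjusted p = 8.57e-15). They were the only hypoxia targets at least 2-fold higher. The promoters of CA9, ANKRD37 and the glycolysis gene ALDOC are shown because the core ACGTG of the element that HIF binds lies in them, at chr9:35673678-35673977 (plus), chr4:185396591-185396890 (plus) and chr17:28576846-28577145 (minus strand, RefSeq, GRCh38.p14), with ACGTG on either strand in capitals. ANKRD37 and ALDOC each hold a CACGTG, which reads ACGTG on both strands.
CA9: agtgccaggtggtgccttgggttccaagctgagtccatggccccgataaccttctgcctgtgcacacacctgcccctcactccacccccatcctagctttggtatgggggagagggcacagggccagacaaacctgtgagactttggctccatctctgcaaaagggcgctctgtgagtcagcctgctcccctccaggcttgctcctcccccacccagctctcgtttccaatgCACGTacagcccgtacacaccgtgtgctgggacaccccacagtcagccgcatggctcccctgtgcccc
ANKRD37: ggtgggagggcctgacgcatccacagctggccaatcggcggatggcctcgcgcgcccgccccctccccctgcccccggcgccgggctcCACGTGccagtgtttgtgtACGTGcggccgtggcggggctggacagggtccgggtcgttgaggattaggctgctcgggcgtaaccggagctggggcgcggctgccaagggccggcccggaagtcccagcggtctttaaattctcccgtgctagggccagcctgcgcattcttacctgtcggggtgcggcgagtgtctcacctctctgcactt
ALDOC: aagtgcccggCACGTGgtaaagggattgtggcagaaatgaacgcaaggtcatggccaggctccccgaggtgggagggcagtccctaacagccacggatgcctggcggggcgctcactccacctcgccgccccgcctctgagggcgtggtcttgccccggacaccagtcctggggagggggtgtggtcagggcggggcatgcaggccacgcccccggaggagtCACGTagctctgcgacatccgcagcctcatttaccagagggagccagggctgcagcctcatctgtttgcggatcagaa
RefSeq windows were found for 29 of the 37 hypoxia targets, and 54.8% of their 42 windows held ACGTG. The share was 21.4% of all windows and 31.8% of the windows of mitosis genes. Among the 49 windows of glycolysis genes, the list that holds ALDOC, it was 36.7%.

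CA9, the carbonic anhydrase widely used as a marker of hypoxia, had 19.6 and 27.3 CPM in the siEZH2 experiment, against 14.3, 13.6 and 10.8 CPM in the siSCIRT experiment (0.83 ± 0.14). ANKRD37 had 18.0 and 18.6 CPM against 9.73, 8.98 and 8.10 CPM (1.00 ± 0.12), and EGLN3, the prolyl hydroxylase PHD3 of the feedback on HIF, was higher by 0.94 ± 0.13. VEGFA, the vessel growth factor, had 1570.5 and 1809.9 CPM, against 1128, 1202 and 980.0 CPM (0.62 ± 0.10). BNIP3 had 512 and 566 CPM against 370, 377 and 336 CPM (0.58 ± 0.09), and with the reads of BNIP3P1 added the difference was 0.86. These genes did not overlap between the experiments, and neither did 69.2% of all genes tested. Several well known targets did not pass the test, among them LOX, which crosslinks collagen (-0.08 ± 0.25), VLDLR, a lipoprotein receptor (0.12 ± 0.10), and LOXL2, a relative of LOX (0.02 ± 0.09). One of the 2 lower genes was ANGPTL4, a lipase inhibitor, with 130 and 168 CPM in the siEZH2 experiment, against 338, 310 and 218 CPM in the siSCIRT experiment (-0.94 ± 0.20, adjusted p = 0.00536). Without replicate 3 of the siSCIRT experiment, which had the lowest summed level of the list, LOX (-0.30, adjusted p = 0.0223) and the collagen hydroxylase PLOD2 (-0.29, adjusted p = 0.0284) were lower as well, which made 4 lower in place of 2.

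Glycolysis genes were mostly higher too. Of 22 genes, 15 were higher and 1 lower (median 0.34), and 1 was at least 2-fold higher. The higher count was as low as 11 under the alternatives run, and the median ran from 0.27 to 0.40 with 1 library left out. The SD of this list's median between replicates was 0.133. ALDOC, aldolase C, had 65.8 and 81.4 CPM in siNC spheres of the siEZH2 experiment, against 36.4, 36.2 and 33.3 CPM in those of the siSCIRT experiment (1.04 ± 0.10, adjusted p = 3.55e-10). The enzymes PFKFB4 (0.97 ± 0.10) and PFKFB3 (0.89 ± 0.10), which set the level of the main activator of phosphofructokinase, were higher, and so were ENO2 (0.77 ± 0.10) and PGK1 (0.72 ± 0.10). LDHA, lactate dehydrogenase, was lower by a small amount (-0.21 ± 0.09, adjusted p = 0.046), a call that was lost when any 1 library except replicate 2 of the siEZH2 experiment was left out. The values without them were -0.15 (siEZH2 experiment, replicate 1) and -0.24, -0.17 and -0.24 (siSCIRT experiment, replicates 1, 2 and 3). PFKM (0.01 ± 0.10), GBE1 (0.04 ± 0.10) and ALDOA (0.15 ± 0.09) did not pass the test.

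The RNAs of the oxygen sensor itself differed less. Over all genes tested, 22.5% were higher and 31.5% lower. Of 10 genes of HIF subunits, cofactors and oxygen sensing, 2 were higher (20%) and 5 lower (50%), with a median of -0.11. The lower count was 1 without replicate 2 of the siEZH2 experiment, and 3 without its replicate 1 or without replicate 2 or 3 of the siSCIRT experiment. HIF1A, the oxygen-regulated subunit of HIF-1, had 266 and 206 CPM in the siEZH2 experiment, against 348, 368 and 389 CPM in the siSCIRT experiment (-0.65 ± 0.10, adjusted p = 1.91e-06). CITED2, which competes with HIF-1 for its coactivators and is itself induced by hypoxia, was higher by 0.57 ± 0.12, and VHL, the ligase subunit that marks HIF for decay, by 0.36 ± 0.09. HIF1AN (0.01 ± 0.09), the asparagine hydroxylase of HIF, and ARNT (0.11 ± 0.09), its partner subunit, did not pass the test. HIF activity is set mostly by protein decay, which RNA levels do not measure.

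**Figure D3:**
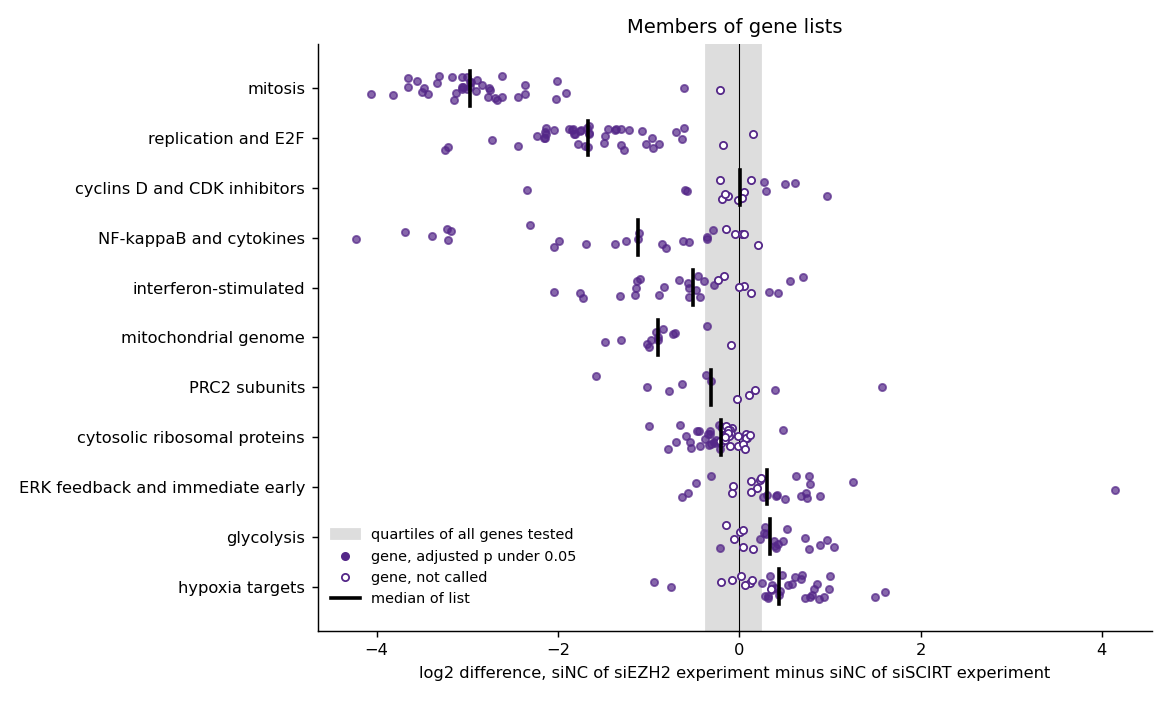
Each dot is 1 gene of a list, placed at its log2 difference of siNC spheres, siEZH2 experiment minus siSCIRT experiment; filled dots were called at an adjusted p under 0.05, black bars are list medians, and the grey band runs from the lower to the upper quartile of all genes tested. Among the 11 lists plotted, medians run from -2.97 for mitosis to 0.44 for hypoxia targets, and the dot at 4.14 in the ERK list is IER3, a gene of the MHC region.

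Inflammatory genes formed another block that was lower in the siEZH2 experiment. Of 26 tested targets of NF-kappaB, the factor that drives cytokine and acute-phase genes, 21 were lower and none higher (median -1.11), 14 of them at least 2-fold. LCN2, lipocalin 2, an iron-scavenging secreted protein, had 1.55 and 1.25 CPM in siNC spheres of the siEZH2 experiment, against 38.7, 32.8 and 34.0 CPM in those of the siSCIRT experiment (-4.23 ± 0.12, adjusted p = 4.91e-24). Complement C3 had 18.0 and 14.3 CPM against 212, 200 and 226 CPM (-3.68 ± 0.10, adjusted p = 7.2e-25). SAA1, serum amyloid A1, and its near copy SAA2 were at -3.38 ± 0.11 and -3.22 ± 0.13, and IL1B, interleukin 1 beta, was at -3.22 ± 0.12. Interleukin 8, CXCL8, listed as IL8 in the tables, had 176 and 175 CPM against 606, 629 and 480 CPM (-1.69 ± 0.10). The experiments did not overlap in any of these genes, nor in 69.2% of all genes tested. The feedback inhibitor NFKBIA, an early target of the pathway, did not pass the test, at 297 and 259 CPM in the siEZH2 experiment and 304, 262 and 297 CPM in the siSCIRT experiment (-0.05 ± 0.10, adjusted p = 0.682). The subunit gene RELB was at 0.03 ± 0.10, and LIF, a cytokine of the interleukin 6 family, at 0.05 ± 0.10.

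Interferon-stimulated genes were lower in part. Of 28 genes, 19 were lower (67.9%, against 31.5% of all genes tested) and 4 higher (14.3%, against 22.5%), with a median of -0.51. Outside the MHC region 18 of 26 were lower and 3 higher (median -0.55). IFIT3, an antiviral RNA-binding protein gene, had 32.9 and 25.6 CPM in the siEZH2 experiment, against 116, 120 and 127 CPM in the siSCIRT experiment (-2.04 ± 0.10). IFIT2 (-1.75 ± 0.10), OASL (-1.72 ± 0.10) and HERC5 (-1.32 ± 0.11) were lower as well. OAS1 (0.70 ± 0.14) and IRF9 (0.56 ± 0.14) were higher, and IFI27 (0.06 ± 0.10) did not pass the test.

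Transcripts of the mitochondrial genome took 4.45 and 4.94% of reads in siNC spheres of the siEZH2 experiment, against 6.39, 6.6 and 6.11% in those of the siSCIRT experiment. Knockdown libraries were at 4.5 and 4.51% with siEZH2 and at 5.54 to 6.11% with siSCIRT. The MTRNR2L genes took 0% of reads in the siEZH2 table and 0.13 to 0.15% in the siSCIRT table. The 13 protein-coding mitochondrial genes summed to 32890 and 35790 CPM in siNC spheres of the siEZH2 experiment. Those of the siSCIRT experiment had 56540, 58140 and 53800 CPM. The rest of the mitochondrial reads went the other way, with a larger share in siNC spheres of the siEZH2 experiment. Whether the making of the tables shaped the mitochondrial shares was not tested. Of the 13 protein-coding genes, 12 were lower and none higher (median -0.90), except that MT-CO1 stood at 0.06 (adjusted p = 0.587) with quantile normalization. MT-CYB, the cytochrome b of complex III, had 995 and 975 CPM in the siEZH2 experiment, against 2349, 2466 and 2491 CPM in the siSCIRT experiment (-1.30 ± 0.09). MT-CO1, a core subunit of complex IV, was lower by -0.36 ± 0.09, and MT-ND3 did not pass the test (-0.09 ± 0.10). Of the 35 nuclear genes of the respiratory chain, 4 were higher (11.4%, against 22.5% of all genes tested) and 10 lower (28.6%, against 31.5%). Their median was -0.11 (-0.15 to -0.03 with 1 library left out), with COX8A at -0.77 ± 0.11. Of 46 cytosolic ribosomal protein genes 21 were lower (45.7%, against 31.5%) and 1 higher (2.17%, against 22.5%), with a median of -0.20. The lower ones were led by RPS23 (-0.99 ± 0.09) and RPL6 (-0.79 ± 0.09).

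The targets of the siRNAs were compared in the controls, where nothing was aimed at them. EZH2, the methyltransferase of Polycomb repressive complex 2 and an E2F target, had 15.8 and 15.4 CPM in siNC spheres of the siEZH2 experiment, against 48.0, 43.3 and 51.4 CPM in those of the siSCIRT experiment (-1.58 ± 0.10, adjusted p = 1.78e-14). With siEZH2 it had 7.91 and 7.89 CPM, and with siSCIRT 30.7 to 35.9 CPM, so the starting level of the siEZH2 experiment was under the level left by the SCIRT knockdowns in the other table. Among the 11 subunits of the complex 6 were lower and 2 higher (1 without replicate 1 of the siEZH2 experiment), with PHF19 (-1.02 ± 0.11) and RBBP4 (-0.78 ± 0.09) lower. PHF1 was higher (1.58 ± 0.09) and lies in the MHC region. The shares of the subunits were 54.5% lower and 18.2% higher, against 31.5% and 22.5% of all genes tested. SCIRT (RP5-1120P11.1 in the tables) had 4.41 and 5.71 CPM in the siEZH2 experiment and 4.88, 5.45 and 4.87 CPM in the siSCIRT experiment, with groups that overlapped (-0.01, adjusted p = 0.957). Its reads and those of genes on the opposite strand cannot be told apart, because the kit does not mark strand.

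Early response and adhesion genes were mixed. Of 25 genes of ERK feedback and immediate early response 14 were higher (56%) and 4 lower (16%), against 22.5% and 31.5% of all genes. Without IER3 13 of 24 were higher (median 0.29). DUSP5, a phosphatase that inactivates ERK, had 272 and 352 CPM in the siEZH2 experiment, against 137, 138 and 114 CPM in the siSCIRT experiment (1.25 ± 0.11), and SPRY2, a feedback inhibitor of receptor signalling, was higher by 0.89 ± 0.10. Of 34 matrix and adhesion genes 17 were higher (50%, against 22.5% of all genes tested) and 10 lower (29.4%, against 31.5%). ITGB4, the integrin beta 4 subunit of hemidesmosomes, had 1767 and 1832 CPM in the siEZH2 experiment, against 495, 567 and 486 CPM in the siSCIRT experiment (1.80 ± 0.09, adjusted p = 1.75e-17), and COL6A1, a collagen VI chain, was higher by 1.24 ± 0.09. THBS1, thrombospondin 1 (-1.45 ± 0.10), and the stromelysin gene MMP3 (-2.18 ± 0.18) were lower. Of 10 tested stemness genes 5 were higher (50%, against 22.5% of all genes tested) and 4 lower (40%, against 31.5%). NES, the intermediate filament nestin (1.09 ± 0.10), the Polycomb gene BMI1 (1.07 ± 0.11) and KLF4 (1.01 ± 0.10) were higher, and MYC was lower (-0.63 ± 0.10).

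The same genes were then placed beside the other libraries, each table scaled to CPM, with culture levels over the genes of the culture table. Summed over the mitosis list, siNC spheres of the siEZH2 experiment stood at 647 and 573 CPM and those of the siSCIRT experiment at 3615, 3249 and 4194 CPM. The siEZH2 libraries, at 995 and 824 CPM, were above their own controls, and the siSCIRT libraries, at 2029 to 2367 CPM, were below theirs, with no overlap in either table. Adherent cells had 2538 and 2479 CPM, 16 h spheres 1244 and 1217 CPM and 5 d spheres 1531 and 1507 CPM. On this measure, the controls of the siEZH2 experiment lay below every culture library and those of the siSCIRT experiment above every one. For the replication list the sums were 707 and 661 CPM in the siEZH2 experiment and 1812, 1541 and 2003 CPM in the siSCIRT experiment, against 2409 and 2403 CPM in adherent cells, 771 and 791 CPM at 16 h and 1218 and 1188 CPM at 5 d.

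Hypoxia targets summed to 19610 and 23540 CPM in siNC spheres of the siEZH2 experiment and to 12460, 13550 and 10260 CPM in those of the siSCIRT experiment. Adherent cells had 4088 and 4146 CPM, 16 h spheres 15480 and 15470 CPM and 5 d spheres 7782 and 7794 CPM. Both sets of controls were far above adherent cells, and NDRG1 makes up a large part of these sums. In the culture series, the median of the hypoxia list was 1.39 at 16 h and 0.84 at 5 d relative to adherent cells. Targets of NF-kappaB summed to 2863 and 2714 CPM in the siEZH2 experiment and to 5501, 5405 and 4966 CPM in the siSCIRT experiment, both above the 852 to 862 CPM of adherent cells. LCN2, high in all siSCIRT-table libraries (26.2 to 41.1 CPM), was at 0 to 1.14 CPM in the culture libraries and at 0.54 to 1.55 CPM in the siEZH2 table.

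**Figure D4:**
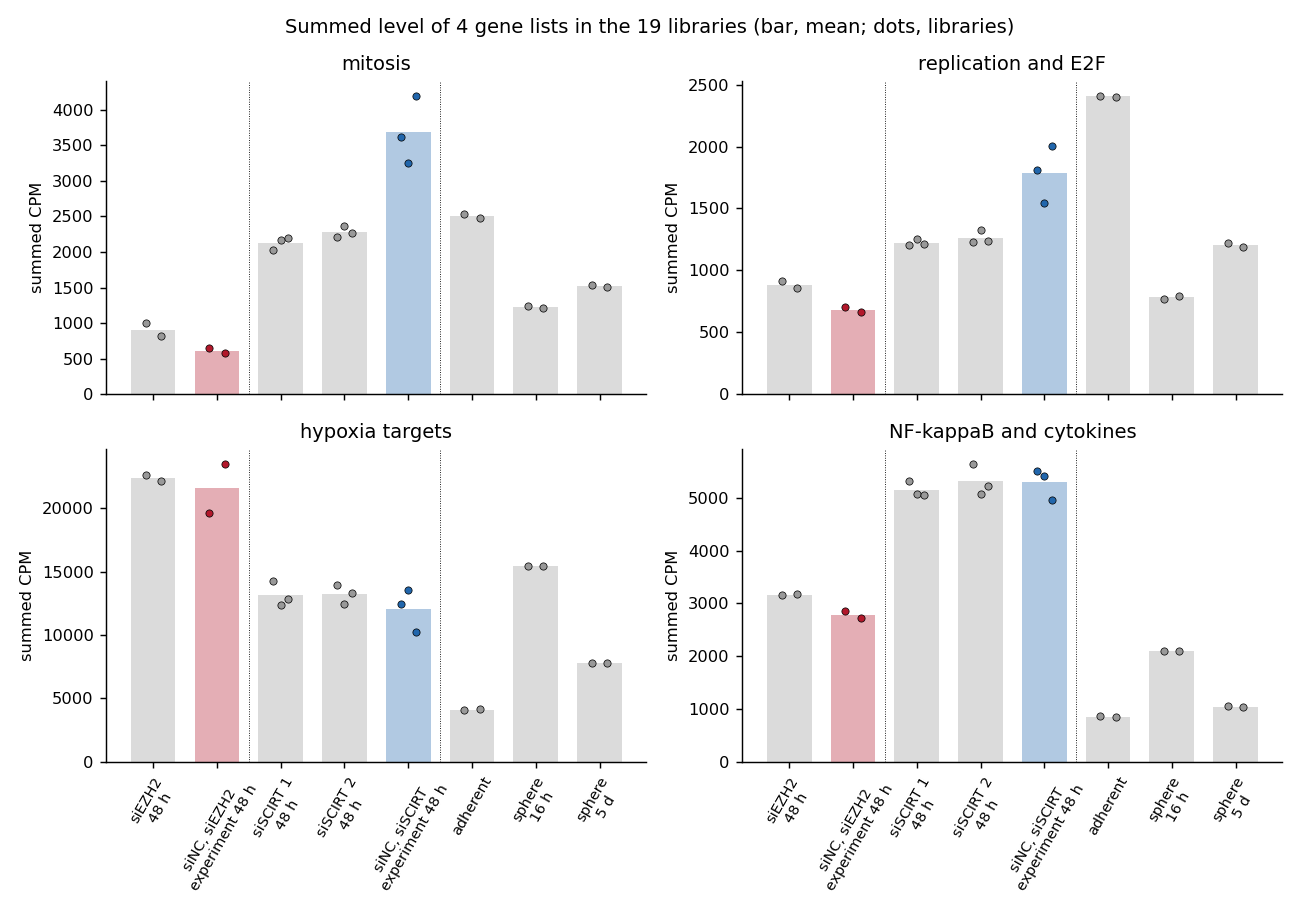
Summed CPM of 4 gene lists in the 19 libraries, with dots for libraries, bars for group means and dotted lines between the 3 tables; siNC of the siEZH2 experiment is red and siNC of the siSCIRT experiment blue. The red bar is the lowest of all for mitosis and replication and the blue bar the highest for mitosis, while for hypoxia targets the red bar stands above the blue one and both stand above adherent cells.

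The culture series, which shares no library with the controls, gave an outside description of sphere-related genes. Of genes at least 2-fold lower in 16 h spheres than in adherent cells (1677 of 13841 tested, 12.1%), 1467 were tested between the controls. In the siEZH2 experiment 705 of these were lower (48.1%) and 219 higher (14.9%), with a median of -0.26. Over all genes tested between the controls, 31.5% were lower and 22.5% higher (median -0.05). Without the mitosis and replication lists, the MHC region, pseudogenes and MTRNR2L genes, the median of genes lower at 16 h was -0.23. Of genes at least 2-fold higher at 16 h (801 of 13841, 5.79%), 697 were tested, with 281 higher (40.3%) and 190 lower (27.3%). Their median was 0.10. Of genes higher in 5 d spheres than in adherent cells (892 of 13841, 6.44%) the median between the controls was -0.03, and of those lower (1003, 7.25%) it was -0.19. From 16 h to 5 d, genes that rose (969, 7%) had a median of -0.19 and genes that fell (396, 2.86%) a median of 0.10. With 1 library left out, the median of genes higher at 5 d than in adherent cells ran from -0.08 (without replicate 1 of the siEZH2 experiment) to 0 (without its replicate 2), and that of genes that fell from 16 h to 5 d was 0.05 without replicate 2 of the siEZH2 experiment. ANGPTL4 went against the culture direction, since its log2 difference of 8.57 at 16 h over adherent cells was the largest of the hypoxia list, yet it was lower in siNC spheres of the siEZH2 experiment. NF-kappaB targets did so as a list, with a median of 1.66 at 16 h over adherent cells and -1.11 between the controls.

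**Figure D5:**
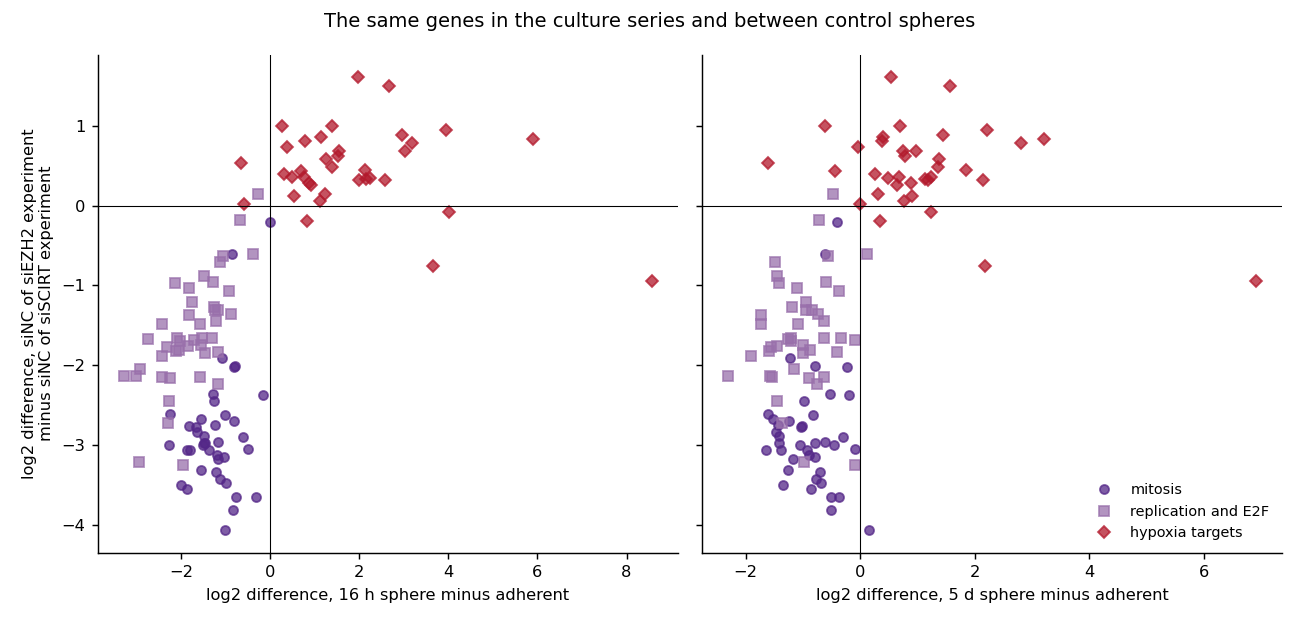
Each point is 1 gene, with its log2 difference in the culture series (horizontal; left, 16 h spheres minus adherent cells; right, 5 d spheres minus adherent cells) against its log2 difference of siNC spheres, siEZH2 experiment minus siSCIRT experiment (vertical). Mitosis and replication genes lie mostly in the lower left and hypoxia targets mostly in the upper right of both panels, with ANGPTL4, the rightmost point, below 0.

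Most markers of other cell types were near their floors. Of 11 blood and immune markers 1 passed the filter, 5 are listed in both tables, PTPRC (CD45) stood at 0.0804 to 0.213 CPM, and the list summed to 5.64 and 4.69 CPM in the siEZH2 experiment and to 12.1, 10.4 and 12.6 CPM in the siSCIRT experiment, nearly all of it CD14 (5.23 and 4.08 CPM against 11.7, 10.2 and 12.4 CPM), a monocyte antigen. Fibroblast, endothelial and fat markers summed to 22.0 and 18.7 CPM and to 14.3, 14.2 and 14.9 CPM, and neuron and glia markers to 195 and 173 CPM and to 155, 160 and 163 CPM, mostly MBP. Of RNAs that lack a poly(A) tail, a sign of how RNA was selected, RN7SK (0.01) and RN7SL2 (0.07) did not pass the test and RN7SL1 was lower (-0.98), a call lost in the fit of all 13 siRNA libraries (adjusted p = 0.182). Without replicate 1 of the siSCIRT experiment RN7SK was higher (0.37, adjusted p = 0.0497). The part of these values in the results was not tested.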

How the data were processed

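Per the labels' protocols, total RNA came from TRI Reagent and libraries from the TruSeq RNA v2 kit (unstranded). CASAVA 1.4, TopHat2, Partek and hg19 appear in the submitters' processing notes with no role or order, and the counting program is not given in the sources used here. The deposited siEZH2 table holds signal values that the authors made by dividing each library's reads by 1 factor. The deposited siSCIRT and culture tables hold log2-scale values of a variance-stabilizing transform made by the authors. Its exact inverse and the step between values gave back whole reads for 100% of values in all 19 libraries (tolerance 0.05 reads). Every gene count below starts from these reads.

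The 5 siNC libraries were scaled together to CPM over the 25819 shared identifiers, which hold 99.83 to 99.99% of reads. The planned test allowed for linear or transformed values, and the tables' own scaling was not used. Genes with a mean of at least 1 CPM were fitted as log2(CPM + 0.5) with limma 3.58.1 in R 4.3.3 (eBayes, trend and robust, two-sided, Benjamini-Hochberg). The fit was tested on simulated data. Replicates differed beyond counting error (chi-square per gene 18.2 to 33.1), so none was a duplicate. Culture libraries were scaled and fitted on their own. Alternatives were other pseudocounts, filters and scalings, edgeR 4.0.16, DESeq2 1.42.0, all 13 siRNA libraries in 1 fit, the replicate number as a block, and each library left out.

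The libraries and the 34 gene lists were chosen with earlier results of these data known. Genes named were the 10 largest differences each way with at least 10 CPM in the higher group, members of the cycling and hypoxia lists, up to 4 called members of other lists with the largest difference, the siRNA targets and marker genes. Further list members that did not pass the test or went the other way were picked after their values were seen. Promoter sequences came from RefSeq (GRCh38.p14), matched by symbol, and gene coordinates of the hg19 tables were not used here. MHC neighbours came from RefSeq gene order. Results for a few single genes are not reported here.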

Additional observations from a re-analysis of the deposited data

Results flagged for a closer look

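A signal stood in genes that only 1 of the tables lists and that no comparison could use. CTD-2328D6.1, a pseudogene listed in the siEZH2 table alone, averaged 1362 CPM in the siNC libraries of that experiment (1249 to 1475 CPM). MTRNR2L6, a nuclear copy of mitochondrial ribosomal RNA listed in the siSCIRT table alone, averaged 85.28 CPM in the siNC libraries of that experiment (75.1 to 94.42 CPM). With them, 38 genes of the siEZH2 table alone and 13 of the siSCIRT table alone had a mean of at least 1 CPM. The level of each in the other experiment is not known.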

How the results depend on the processing

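Directions of the list medians for mitosis, replication, hypoxia targets, glycolysis and NF-kappaB targets held under every alternative run. The replication median was -1.38 and the mitosis median -2.69 with a pseudocount of 2 CPM, the replication median was -1.48 with a mean of at least 10 CPM, and the NF-kappaB median was -0.98 with no filter. Genes at least 2-fold higher and lower numbered 172 and 411 with a mean of at least 10 CPM, and 1172 and 1872 at a fold of 1.5. LDHA was the 1 lower glycolysis gene, and with no filter, TMM or median-of-ratios scaling, eBayes without trend, the replicate block, edgeR or DESeq2 that count was 0. One NF-kappaB target, so 1 in place of 0, was higher with quantile or median-of-ratios scaling, all 13 siRNA libraries, edgeR or DESeq2, as was 1 replication gene (DUT) with quantile normalization. MT-CO1 reversed with quantile normalization (0.057, adjusted p = 0.587). The cause of these changes was not tested, except that a larger pseudocount shrinks low genes and a higher filter removes them. With 1 library left out, genes called ran from 5484 to 7267, lower hypoxia targets from 2 to 4, lower glycolysis genes from 0 to 1 and higher NF-kappaB targets from 0 to 1. A lone siEZH2-experiment library was then assumed to vary like the others. Correlations of deviations between libraries of the same replicate number were -0.17 and -0.038. With 2 libraries in the siEZH2 experiment, these mirror the values for the other number (0.17 and 0.038), so they cannot show whether libraries were paired. With the replicate number as a block 5572 genes were called in place of 7244. edgeR called 3552 genes higher and 3712 lower, and DESeq2 3492 and 3545.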

Other observations

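Lipid and stress genes that the report does not describe split in both directions. Of 24 cholesterol synthesis genes 7 were higher (29.2%) and 5 lower (20.8%) in siNC spheres of the siEZH2 experiment than in those of the siSCIRT experiment. Over all genes tested, 22.5% were higher and 31.5% lower. The median of the list was 0.07, and -0.05 to 0.15 with 1 library left out. Without replicate 3 of the siSCIRT experiment 4 were higher. INSIG1, the sterol-sensing retention protein, had 408 and 467 CPM in the siEZH2 experiment, against 272, 264 and 254 CPM in the siSCIRT experiment (0.73 ± 0.09). The fatty acid elongases ELOVL6 (-1.21 ± 0.11) and ELOVL5 (-0.75 ± 0.09) were lower and ACSS2, which makes acetyl-CoA from acetate, was higher (0.68 ± 0.10). Of 18 p53 targets 5 were higher (27.8%) and 6 lower (33.3%), with a median of 0.04. Among them FAS (-1.31 ± 0.15), GDF15 (-1.22 ± 0.11) and MDM2 (-0.87 ± 0.11) were lower. Of 29 genes of amino acid and unfolded protein stress 5 were higher (17.2%) and 11 lower (37.9%). The serine pathway gene PSAT1 (-0.93 ± 0.11) and the mitochondrial folate enzyme MTHFD2 (-0.99 ± 0.11) were lower.

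Of 15 heat shock genes 7 were lower (46.7%, against 31.5% of all genes tested) and 4 higher (26.7%, against 22.5%), with a median of -0.23. HSPA1B (2.75 ± 0.12) and HSPA1A (1.14 ± 0.12), inducible HSP70 genes, lie in the MHC region, whose bounds were chosen after values were seen, and outside it 7 of 13 were lower and 2 higher (median -0.39). HSPD1, the mitochondrial chaperonin HSP60, had 117 and 98.6 CPM in siNC spheres of the siEZH2 experiment, against 242, 236 and 249 CPM in those of the siSCIRT experiment (-1.17 ± 0.09). Of 14 glucocorticoid targets 9 were higher (64.3%) and 3 lower (21.4%). Among them GLUL, glutamine synthetase, was higher (0.78 ± 0.09) and FKBP5 lower (-0.82 ± 0.12). Of 24 histone genes listed as replication-dependent 10 were tested, with 6 higher (60%) and 1 lower (10%). Their median was 0.49, and 0.064 to 0.581 over the alternatives. The main transcripts of such genes lack a poly(A) tail, and whether these values reflect S phase was not tested. Among mesenchymal genes VIM (0.75 ± 0.11) and S100A4 (0.95 ± 0.09) were higher, while ZEB2 (-0.67 ± 0.11) and CDH11 (-0.60 ± 0.10) were lower.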
